A study of Mus musculus with 47 samples.

Results

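The genes described here are 10 genes of renal phosphate and vitamin D handling, taken by gene symbol from a table of 22474 genes counted in 47 mouse kidney libraries. All 10 were in the table and all 10 passed the filter on low counts. They are the sodium-phosphate cotransporters Slc34a1, Slc34a3, Slc20a1 and Slc20a2, the FGF23 co-receptor Klotho (Kl), the vitamin D enzymes Cyp24a1 and Cyp27b1, the vitamin D receptor Vdr, and the endocytic receptors megalin (Lrp2) and cubilin (Cubn). The libraries were polyadenylated RNA from mice of both sexes and 3 inbred strains (C57BL/6J and CAST/EiJ, and the obese strain NZO/HlLtJ), on a diet labelled 10% fat with fiber or 44% fat with fiber. All mice were labelled wild type with no other treatment, went onto their diet at 6 weeks of age and were sampled at 15 weeks. The series description calls the diets control and high fat, high sugar, and the study asks how strain and diet act together in models of type 2 diabetes. Strain, sex and diet made 12 groups, 11 of them with 4 libraries and 1 (CAST/EiJ M, 10% fat) with 3. F and M stand for female and male.

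Library totals ran from 34394546 to 58433712 counts, with a median of 44759432. The female transcript Xist was at 863 CPM (counts per-million after scaling) or more in every F library and at 2.42 CPM or less in every M library, as labelled. The labels name the tissue as metanephros, the embryonic precursor of the adult kidney, but the markers were those of adult nephron. The thick ascending limb transporter Slc12a1 was at 1059 CPM or more and the proximal tubule transporter Slc5a2 at 338 CPM or more in every library, and 3 nephron progenitor markers summed to at most 7.73 CPM. The labels do not say which mice shared a cage or litter, so p-values measure the spread between these libraries. The first digits of the sample numbers in the titles fall into 3 series, 77, 81 and 89, here called ID runs, whose meaning is not given in the sources used here. No gene was called for a difference between ID runs in the fit across all genes, where 1258 of 18786 had an unadjusted p under 0.05.

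The kidney sets blood phosphate by taking filtered phosphate back up in the proximal tubule. Slc34a1 and Slc34a3, at the brush border, carry most of that uptake, and parathyroid hormone and FGF23 lower it; FGF23 needs Klotho beside an FGF receptor to signal. Filtered vitamin D, bound to its carrier protein, is taken up by megalin and cubilin, after which Cyp27b1 makes the active hormone and Cyp24a1 degrades it. The hormone acts through Vdr, of which Cyp24a1 is a classic target gene.

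Promoters are shown for 4 members with sex differences in opposite directions, Slc34a1 and Kl (higher in M) and Lrp2 and Cubn (higher in F). The sequences are the bases just upstream of the RefSeq start site in GRCm38.p6, 5′ to 3′ on the gene's strand, and the Lrp2 stretch stops where an annotated exon begins. Capitals mark matches on either strand to GTTAAT (an HNF1 half-site), TGTTCT (a steroid receptor half-site) or AGGTCA (a nuclear receptor half-site).
Slc34a1, chr13:55399398-55399647, plus strand: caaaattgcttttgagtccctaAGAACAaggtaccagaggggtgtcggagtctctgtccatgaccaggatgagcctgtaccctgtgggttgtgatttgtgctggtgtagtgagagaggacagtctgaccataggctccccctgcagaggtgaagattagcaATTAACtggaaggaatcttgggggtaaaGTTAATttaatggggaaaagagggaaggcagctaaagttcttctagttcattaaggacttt
Kl, chr5:150952357-150952606, plus strand: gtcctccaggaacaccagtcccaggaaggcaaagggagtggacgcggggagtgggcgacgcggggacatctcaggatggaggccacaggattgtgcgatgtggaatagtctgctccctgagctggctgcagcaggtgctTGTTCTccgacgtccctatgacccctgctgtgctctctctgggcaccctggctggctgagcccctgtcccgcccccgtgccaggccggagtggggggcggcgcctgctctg
Lrp2, chr2:69586066-69586279, minus strand: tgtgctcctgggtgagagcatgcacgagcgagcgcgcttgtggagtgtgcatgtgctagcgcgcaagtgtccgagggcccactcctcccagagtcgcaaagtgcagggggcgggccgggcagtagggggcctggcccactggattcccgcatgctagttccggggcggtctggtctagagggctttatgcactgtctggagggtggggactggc
Cubn, chr2:13491877-13492126, minus strand: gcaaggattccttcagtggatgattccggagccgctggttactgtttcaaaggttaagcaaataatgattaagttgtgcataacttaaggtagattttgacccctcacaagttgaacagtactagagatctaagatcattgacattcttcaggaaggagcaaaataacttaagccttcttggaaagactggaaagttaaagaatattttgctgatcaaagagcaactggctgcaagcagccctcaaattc
The Slc34a1 window held 2 HNF1 half-sites, whose first bases lay 61 and 89 bases before the start, and 1 steroid receptor half-site 228 bases before it. The Kl window held 1 steroid receptor half-site at 111 bases before the start, and the windows of Lrp2 and Cubn held none of these letters. Of 32851 mouse promoter windows of 250 bases, 6.43% held GTTAAT, 16.1% held TGTTCT and 14.0% held AGGTCA. A promoter entry was found for 8 of the 10 members. Those of Slc20a1, Slc34a3, Cyp27b1 and Vdr are not printed. The window of Slc34a3, a gene higher in F, held 2 nuclear receptor half-sites, and that of Vdr, higher in M, held none of the 3 motifs, like that of Cyp27b1. The 2 windows of Slc20a1 held 2 nuclear receptor half-sites and 1 steroid receptor half-site between them. Cyp24a1 and Slc20a2 had no promoter entry. The base composition of the shown stretches ran from 39.6% G and C in Cubn to 66.8% in Kl.

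In GRCm38 coordinates from the deposited annotation, Slc34a1 (ENSMUSG00000021490) lies at chr13:55399648-55414695 on the plus strand. Slc34a3 (ENSMUSG00000006469) lies at chr2:25228898-25234364 on the minus strand, Slc20a1 (ENSMUSG00000027397) at chr2:129198764-129211616 on the plus strand and Slc20a2 (ENSMUSG00000037656) at chr8:22476700-22569607 on the plus strand. Kl (ENSMUSG00000058488) lies at chr5:150952607-150993817 on the plus strand. Cyp24a1 (ENSMUSG00000038567) lies at chr2:170482708-170497145 on the minus strand, Cyp27b1 (ENSMUSG00000006724) at chr10:127048250-127053006 on the plus strand and Vdr (ENSMUSG00000022479) at chr15:97854425-97910630 on the minus strand. Lrp2 (ENSMUSG00000027070) lies at chr2:69424340-69586065 and Cubn (ENSMUSG00000026726) at chr2:13276338-13491813, both on the minus strand. The counts of Slc20a1 and Cubn were not whole numbers in any of the 47 libraries, so some of their reads were shared with other features, and the same held for Slc20a2 in 11 libraries. Exons of 5 members overlap genes on the opposite strand, the highest of which, Smim19 beside Slc20a2, averaged 15.2 CPM. Whether the counting used strand is not given in the sources used here.

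Per kilobase of exon, Slc34a1 was the most abundant member and Cyp27b1 the least. Slc34a1 averaged 739 CPM per kilobase and the other brush border transporter, Slc34a3, 18.6. The 2 receptors of the apical membrane stood at 400 (Lrp2) and 92.3 (Cubn), close to Kl at 94.0, and Vdr stood at 54.1. The widely expressed transporters Slc20a1 and Slc20a2 were at 8.43 and 8.47. Cyp24a1 averaged 45.2 CPM per kilobase against 1.16 for Cyp27b1, so RNA of the degrading enzyme was more abundant than that of the activating enzyme on this scale. Levels below are in CPM and are not compared between genes.

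**Figure D1:**
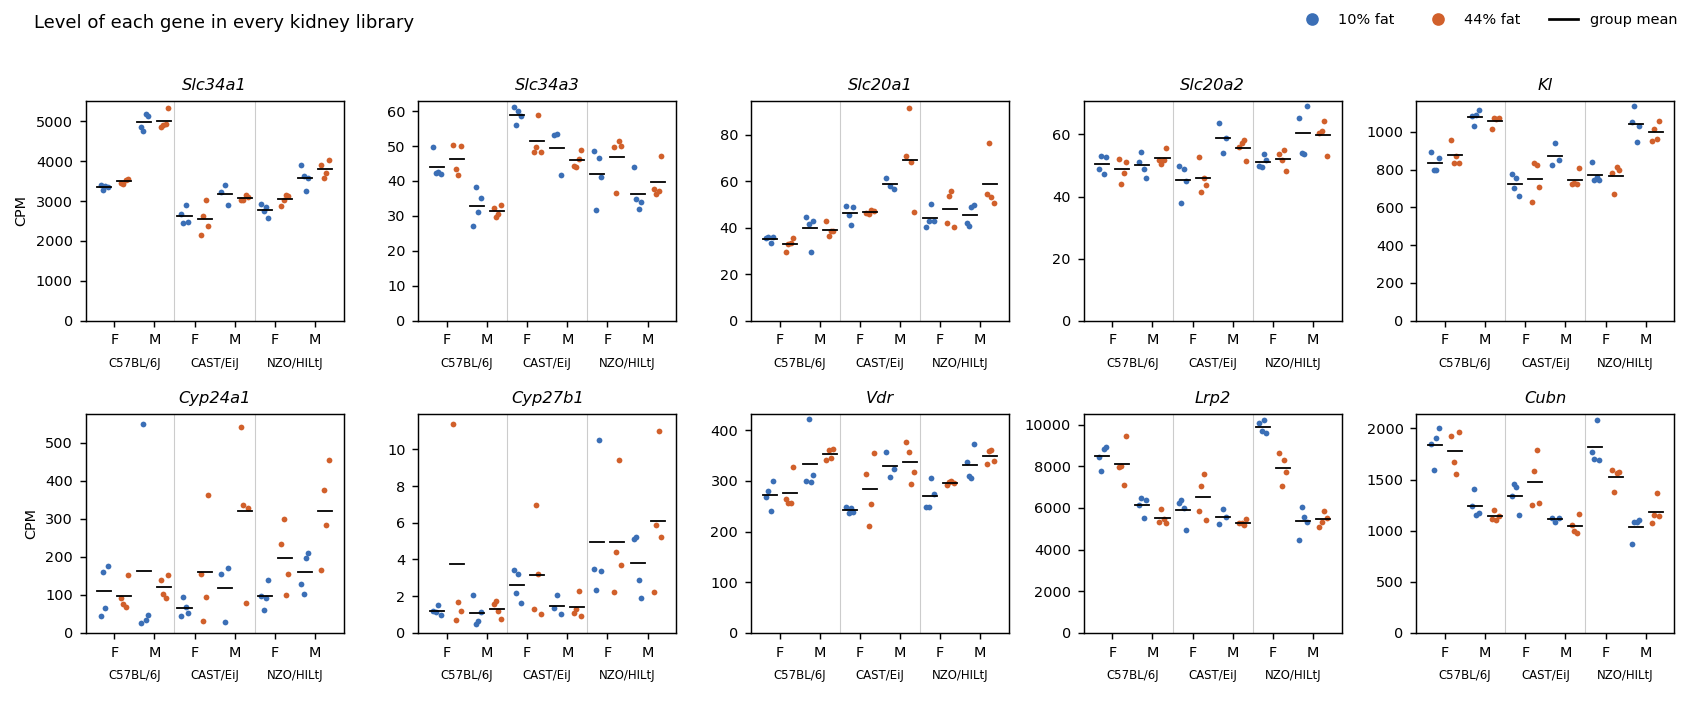
CPM of each of the 10 genes (y axis, from 0) in the 47 libraries, by strain, sex and diet (x axis); each point is 1 library and each line the mean of a group. Slc34a1 and Kl were higher in M, except Kl in CAST/EiJ on 44% fat, and Lrp2 and Cubn were higher in F. Cyp24a1 and Cyp27b1 spread widely within groups, in the widest from 25.4 to 550 CPM and from 0.709 to 11.4 CPM.

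Sex was compared within each strain over both diets, as F minus M in log2 CPM. The phosphate transporter Slc34a1, Klotho and Vdr were lower in F than in M in all 3 strains, and Slc34a3, Lrp2 and Cubn were higher in F in all 3 strains. In C57BL/6J 6 of 10 members were called at an adjusted p under 0.05 (3 higher in F, 3 lower), where 47.9% of all genes tested were called. In CAST/EiJ 8 members were called (3 higher, 5 lower) against 47.6% of all genes, and in NZO/HlLtJ 7 (3 higher, 4 lower) against 49.9%. The median log2 difference of the members was -0.13, -0.20 and -0.19 in the 3 strains, and that of all genes 0.05, 0.05 and 0.04.

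Slc34a1, the main phosphate transporter of the proximal tubule, ranged in C57BL/6J from 3270 CPM over a median of 3411 to 3556 in F, and from 4754 over 4913 to 5342 in M. No F library reached the lowest M library of that strain. In CAST/EiJ the F libraries ran from 2159 (median 2559) to 3022 and the M libraries from 2893 (median 3105) to 3390, with overlap. In NZO/HlLtJ they ran from 2584 (median 2899) to 3142 in F and from 3242 (median 3664) to 4021 in M, without overlap. The log2 difference was -0.55 ± 0.05 (SE) in C57BL/6J with an adjusted p of 3.13e-12, -0.27 ± 0.05 in CAST/EiJ and -0.35 ± 0.05 in NZO/HlLtJ, each called. The second brush border transporter, Slc34a3, went the other way. Its F libraries in C57BL/6J ran from 41.6 (median 43.0) to 50.3 CPM and its M libraries from 27.1 (median 31.7) to 38.2, a log2 difference of 0.49 ± 0.08 with an adjusted p of 8.19e-06. In CAST/EiJ the difference in Slc34a3 was 0.21 ± 0.09 (adjusted p 0.0455) and in NZO/HlLtJ 0.23 ± 0.08 (adjusted p 0.0207), with overlapping libraries in both.

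The smaller differences of Slc34a3 depended on single libraries. The CAST/EiJ call held in 7 of 15 fits that left out 1 library. It was lost without F 10% fat replicates 1, 3 or 4, F 44% fat replicate 3, M 10% fat replicate 3 or M 44% fat replicates 1, 2 or 3, with adjusted p up to 0.185. The NZO/HlLtJ call held in 13 of 16 such fits and was lost without F 10% fat replicates 1 or 3 or M 10% fat replicate 3.

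The widely expressed transporters Slc20a1 and Slc20a2, which bring phosphate into most cell types, were lower in F in part of the strains. Slc20a1 in CAST/EiJ ran from 41.1 (median 46.8) to 49.5 CPM in F and from 46.9 (median 61.6) to 91.3 in M, with a log2 difference of -0.45 ± 0.10 (adjusted p 2.82e-04). Its difference was -0.22 ± 0.10 in C57BL/6J (adjusted p 0.0634) and -0.16 ± 0.10 in NZO/HlLtJ (adjusted p 0.159), neither called. In C57BL/6J it was called without M 10% fat replicate 3 (adjusted p 0.0177) or F 44% fat replicate 4 (adjusted p 0.0452). Slc20a2 was called in CAST/EiJ at -0.33 ± 0.06 and in NZO/HlLtJ at -0.22 ± 0.06. In C57BL/6J its difference was -0.04 ± 0.06, with a 95% interval from -0.16 to 0.08.

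Klotho ran from 796 (median 848) to 958 CPM in C57BL/6J F and from 1017 (median 1073) to 1115 in M. In NZO/HlLtJ it ran from 673 (median 773) to 842 in F and from 946 (median 1023) to 1137 in M. The 2 sexes did not overlap in either of these strains. The log2 differences were -0.32 ± 0.05 and -0.40 ± 0.05, with adjusted p of 2.65e-06 and 1.42e-08. In CAST/EiJ the libraries ran from 629 to 836 in F and from 722 to 940 in M, a difference of -0.13 ± 0.05 with an adjusted p of 0.0460. That call held in 8 of 15 fits without 1 library and in 3 of 7 other settings, with adjusted p up to 0.196. It was lost without F 10% fat replicates 2 or 4, F 44% fat replicates 1 or 4, M 10% fat replicates 2 or 3, or M 44% fat replicate 4. The CAST/EiJ means lay apart on 10% fat only, at 725 CPM in F and 871 in M (n = 3). On 44% fat they were 749 in F and 745 in M.

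Vdr, the nuclear receptor for active vitamin D, was lower in F by similar amounts in the 3 strains, at -0.31 ± 0.08, -0.35 ± 0.08 and -0.27 ± 0.08. Its libraries ran from 241 (median 266) to 327 CPM in C57BL/6J F and from 297 (median 343) to 422 in M. The enzyme Cyp24a1 was not called in any strain, with differences of -0.45 ± 0.51, -0.98 ± 0.54 and -0.67 ± 0.52. In C57BL/6J its direction turned without M 10% fat replicate 2, a library at 550 CPM, to 0.86 ± 0.42 (adjusted p 0.0979). In CAST/EiJ it passed without F 44% fat replicate 4, at -1.34 with an adjusted p of 0.0450. Cyp27b1 was not called either, at 0.67 ± 0.50, 1.03 ± 0.50 and 0.12 ± 0.43. The C57BL/6J value of Cyp27b1 was -0.22 ± 0.42 without F 44% fat replicate 1. The CAST/EiJ value of Cyp27b1 (adjusted p 0.0922) passed with the DESeq2 Wald test and in a fit on CAST/EiJ alone (adjusted p 0.0218).

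Megalin was higher in F in each strain. Lrp2 ran in C57BL/6J from 7098 (median 8224) to 9470 CPM in F and from 5282 (median 5744) to 6467 in M. In NZO/HlLtJ it ran from 7045 (median 9107) to 10242 in F and from 4473 (median 5435) to 6056 in M, so that every F library of both strains lay above every M library. In CAST/EiJ the F libraries ran from 4939 (median 6135) to 7651 and the M libraries from 5175 (median 5261) to 5942, with overlap. The log2 differences were 0.50 ± 0.06, 0.71 ± 0.06 and 0.19 ± 0.07 for C57BL/6J, NZO/HlLtJ and CAST/EiJ, with adjusted p of 1.45e-08, 1.48e-12 and 0.0163. Without CAST/EiJ F 44% fat replicate 3 the last one was 0.15, with an adjusted p of 0.0570. Cubilin, which binds megalin to be internalized, was higher in F by 0.60 ± 0.07 in C57BL/6J, 0.38 ± 0.07 in CAST/EiJ and 0.59 ± 0.07 in NZO/HlLtJ. Its F libraries ran from 1558 to 2001 CPM in C57BL/6J and from 1381 to 2085 in NZO/HlLtJ, and its M libraries from 1109 to 1408 and from 869 to 1372.

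Markers of nephron segments also differed between the sexes. The summed level of 5 markers of the straight proximal tubule ran from 6018 to 9212 CPM in M and from 2437 to 3971 in F. Of these 5, Slc22a13 leaned the other way, from 56.3 to 155 CPM in M and from 132 to 193 in F. The 6 markers of the whole proximal tubule summed to 2621 to 3181 CPM in M and 1842 to 2509 in F. The 7 markers of the convoluted part ran from 3255 to 5045 in M and from 3766 to 5301 in F, and the 5 podocyte markers from 305 to 411 in M and from 477 to 537 in F. The 4 markers of the thick ascending limb summed to 2893 to 6563 in M and 4692 to 7696 in F. The part of these markers in the differences of the members was not tested. In bulk RNA fewer cells of a type and less RNA per cell cannot be told apart.

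The size of the sex difference itself was compared between strains. For CAST/EiJ against C57BL/6J, 3 members were called, against 13.2% of all genes. The deficit of Slc34a1 in F was smaller in CAST/EiJ by 0.28 ± 0.07 (adjusted p 0.00608), the excess of Lrp2 was smaller by -0.31 ± 0.09 (adjusted p 0.0167), and Slc20a2 differed by -0.29 ± 0.08 (adjusted p 0.0128). The Lrp2 call was lost without C57BL/6J F 44% fat replicate 4, at an adjusted p of 0.0575. Without C57BL/6J M 10% fat replicate 2 Cyp24a1 passed as well, at -1.81 ± 0.58 (adjusted p 0.0339) in place of -0.53 ± 0.74, and Kl passed without CAST/EiJ F 44% fat replicate 1 (adjusted p 0.0207). For NZO/HlLtJ against CAST/EiJ, 2 members were called, against 14.3% of all genes. Lrp2 had a larger excess in F in NZO/HlLtJ, by 0.52 ± 0.09 (adjusted p 4.03e-05), and Kl a larger deficit, by -0.27 ± 0.07 (adjusted p 0.00836). Slc20a1 passed there only without CAST/EiJ M 44% fat replicate 4 (adjusted p 0.0381). For NZO/HlLtJ against C57BL/6J, 0 members were called, 4 had an unadjusted p under 0.05 (16.9% of all genes had one), and 4.95% of all genes were called. The Slc34a1 difference in that comparison, 0.20 ± 0.07 with an adjusted p of 0.0915, passed in 3 of 7 other settings and without NZO/HlLtJ M 10% fat replicate 1.

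**Figure D2:**
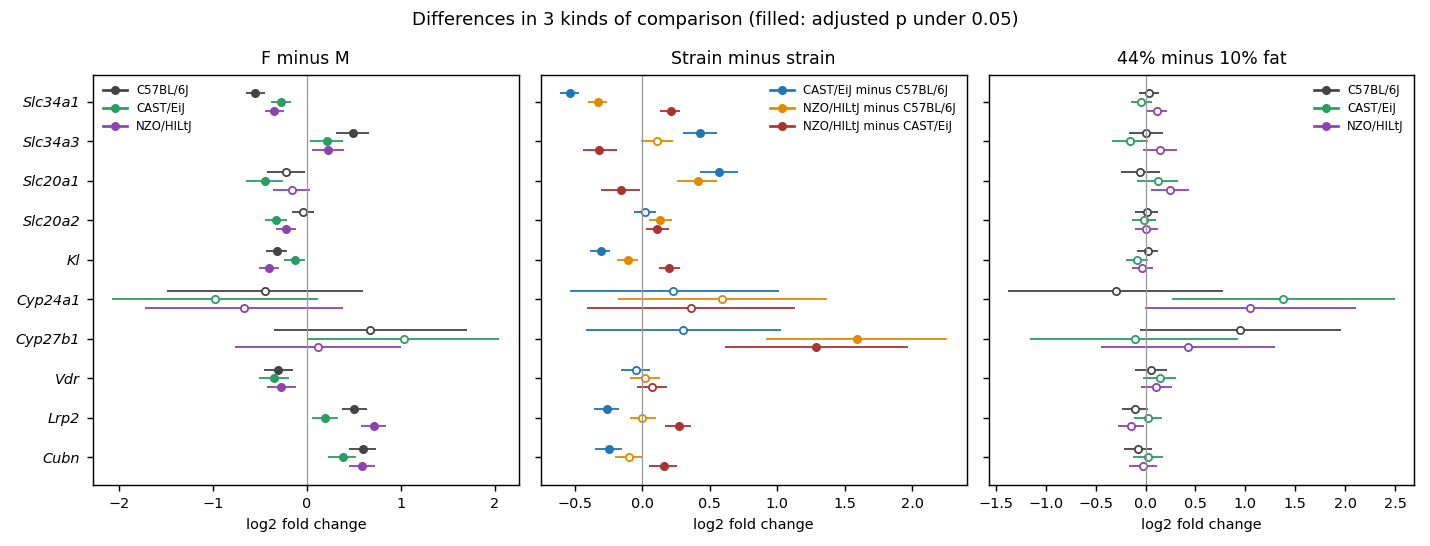
log2 fold change (x axis) of each gene (y axis) for F minus M in each strain, for each pair of strains and for 44% minus 10% fat in each strain; points are edgeR estimates, bars their 95% intervals and filled points have an adjusted p under 0.05. All filled points lie in the sex and strain panels; the diet panel has none.

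Strains were compared over both sexes and diets. On average Slc34a1 and Kl were highest in C57BL/6J and lowest in CAST/EiJ, and Slc34a3 was highest in CAST/EiJ. Cyp27b1 was highest on average in NZO/HlLtJ, with libraries that overlapped those of both other strains. CAST/EiJ against C57BL/6J gave 6 members called (2 higher, 4 lower) where 71.4% of all genes were called. NZO/HlLtJ against C57BL/6J gave 5 (3 higher, 2 lower) against 52.2%, and NZO/HlLtJ against CAST/EiJ gave 8 (6 higher, 2 lower) against 70.0%. These comparisons share libraries. Whether reads of CAST/EiJ and NZO/HlLtJ were aligned to their own genomes is not given in the sources used here, and an effect of sequence differences on the counts was not tested.

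Slc34a1 averaged 4206 ± 827 CPM (SD, n = 16) in C57BL/6J, 2834 ± 356 (n = 15) in CAST/EiJ and 3299 ± 457 (n = 16) in NZO/HlLtJ. The log2 differences from C57BL/6J were -0.54 ± 0.04 and -0.33 ± 0.04, and NZO/HlLtJ exceeded CAST/EiJ by 0.21 ± 0.04. Slc34a3 averaged 38.7 ± 7.65 CPM in C57BL/6J, 51.5 ± 6.29 in CAST/EiJ and 41.2 ± 6.89 in NZO/HlLtJ, so the strain with the least Slc34a1 had the most Slc34a3. It was 0.43 ± 0.06 higher in CAST/EiJ than in C57BL/6J and 0.32 ± 0.06 higher than in NZO/HlLtJ. Kl averaged 963 ± 118, 766 ± 81.3 and 895 ± 141 CPM in the same order of strains, with CAST/EiJ lower than C57BL/6J by -0.31 ± 0.04 and NZO/HlLtJ by -0.11 ± 0.04.

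Slc20a1 was higher in CAST/EiJ and NZO/HlLtJ than in C57BL/6J, at 55.0 ± 13.3 and 49.0 ± 9.14 against 36.7 ± 4.52 CPM, by 0.57 ± 0.07 and 0.41 ± 0.07. NZO/HlLtJ lay below CAST/EiJ by -0.16 ± 0.07 (adjusted p 0.0368), a call that held in 16 of 31 fits without 1 library. It was lost without CAST/EiJ F 10% fat replicates 1 or 4, F 44% fat replicate 4, M 10% fat replicate 1 or M 44% fat replicates 1 or 2. Leaving out NZO/HlLtJ F 10% fat replicates 1 or 4, F 44% fat replicates 1 or 4, M 10% fat replicates 1 or 2, or M 44% fat replicates 1, 3 or 4 also ended it, with adjusted p up to 0.0757. Slc20a2 was higher in NZO/HlLtJ than in both other strains, by 0.13 ± 0.04 and 0.11 ± 0.04.

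Cyp27b1, which makes active vitamin D, averaged 4.94 ± 2.94 CPM in NZO/HlLtJ, 1.84 ± 2.59 in C57BL/6J and 2.20 ± 1.57 in CAST/EiJ. Its NZO/HlLtJ libraries ran upward from 1.91 CPM with a median of 4.05, and its C57BL/6J libraries from 0.472 (median 1.17) to 11.4. NZO/HlLtJ was higher by 1.59 ± 0.33 than C57BL/6J (adjusted p 1.15e-04) and by 1.29 ± 0.34 than CAST/EiJ (adjusted p 9.69e-04). Without C57BL/6J F 44% fat replicate 1, the library at 11.4 CPM, the difference of CAST/EiJ from C57BL/6J passed as well, at 0.72 ± 0.28 (adjusted p 0.0246) in place of 0.30 ± 0.36 (adjusted p 0.455), and that of NZO/HlLtJ was 2.07 ± 0.27. Cyp24a1 averaged 124 ± 123 CPM in C57BL/6J, 169 ± 153 in CAST/EiJ and 193 ± 112 in NZO/HlLtJ, and no strain pair was called. Here too the outcome depended on 1 library, and for NZO/HlLtJ against C57BL/6J also on the test used. Without C57BL/6J M 10% fat replicate 2, at 550 CPM, Cyp24a1 was higher than in C57BL/6J by 0.79 ± 0.29 in CAST/EiJ (adjusted p 0.0149) and by 1.19 ± 0.29 in NZO/HlLtJ (adjusted p 8.90e-04). Vdr did not pass in any pair, with differences of -0.05 ± 0.06, 0.02 ± 0.06 and 0.07 ± 0.06.

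Averaged over the sexes, Lrp2 and Cubn were lower in CAST/EiJ than in C57BL/6J, by -0.26 ± 0.05 and -0.25 ± 0.05. NZO/HlLtJ exceeded CAST/EiJ by 0.27 ± 0.05 and 0.16 ± 0.05. Mean Lrp2 in C57BL/6J, CAST/EiJ and NZO/HlLtJ was 8311, 6200 and 8908 CPM in F and 5816, 5409 and 5404 in M. The Lrp2 difference between NZO/HlLtJ and CAST/EiJ thus lay in F. Mean Cubn was 1808, 1408 and 1671 CPM in F and 1194, 1077 and 1112 in M. Between NZO/HlLtJ and C57BL/6J the Lrp2 difference was 0.00 ± 0.05, with a 95% interval from -0.09 to 0.10, and that of Cubn -0.10 ± 0.05 (adjusted p 0.0988). The Cubn difference passed without C57BL/6J F 10% fat replicate 2 or NZO/HlLtJ M 44% fat replicate 3, with the lowest adjusted p at 0.0492, and the Slc34a3 difference of 0.11 ± 0.06 without NZO/HlLtJ F 10% fat replicate 2.

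The diets were compared within each strain over both sexes. None of the 10 members passed in C57BL/6J, CAST/EiJ or NZO/HlLtJ, where 0.0266%, 0.990% and 3.62% of all genes were called. Unadjusted p-values were under 0.05 for 0, 1 and 3 members, and for 5.78%, 13.6% and 17.4% of all genes. No member passed in any diet comparison within a strain with another scaling, filter or test, or without any 1 library. For 8 members the 95% intervals were narrow: that of Slc34a1 ran from -0.07 to 0.13 in C57BL/6J, from -0.15 to 0.06 in CAST/EiJ and from 0.01 to 0.21 in NZO/HlLtJ, and that of Kl from -0.09 to 0.12, from -0.20 to 0.02 and from -0.14 to 0.07. For Cyp24a1 and Cyp27b1 they were wide and left room for sizeable changes.

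Cyp24a1 on 10% fat stood at 45.3, 94.6, 67.8 and 51.8 CPM in the CAST/EiJ F libraries and at 156, 30.3, 95.3 and 362 on 44% fat. In CAST/EiJ M it stood at 155, 28.3 and 171 CPM on 10% fat and at 541, 335, 77.4 and 327 on 44% fat. Both diets overlapped in each sex, with the highest libraries on 44% fat. The log2 difference was 1.38 ± 0.55, with a 95% interval from 0.26 to 2.50, an unadjusted p of 0.0171 and an adjusted p of 0.240. In NZO/HlLtJ the F libraries stood at 97.0, 59.6, 92.4 and 139 CPM on 10% fat and at 233, 300, 99.0 and 154 on 44% fat. The NZO/HlLtJ M libraries stood at 129, 101, 198 and 209 on 10% fat and at 166, 375, 283 and 455 on 44% fat. The difference there was 1.05 ± 0.52, with an adjusted p of 0.292. In C57BL/6J it was -0.30 ± 0.53 with an interval from -1.38 to 0.78, and this strain's M libraries on 10% fat stood at 25.4, 550, 33.1 and 47.2 CPM against 139, 103, 92.7 and 152 on 44% fat. Without the library at 550 CPM the C57BL/6J difference turned to 0.86 ± 0.41, with an adjusted p of 0.857.

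Cyp27b1 in C57BL/6J F stood at 1.17, 1.15, 1.54 and 0.997 CPM on 10% fat and at 11.4, 0.709, 1.68 and 1.22 on 44% fat. The diet difference of that strain was 0.95 ± 0.50 (adjusted p 0.880) with all libraries and 0.08 ± 0.41 without the library at 11.4 CPM. Slc20a1 in NZO/HlLtJ was higher on 44% fat by 0.24 ± 0.10 without passing (unadjusted p 0.0153, adjusted p 0.161), and Lrp2 in NZO/HlLtJ was at -0.15 ± 0.06 (adjusted p 0.200).

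Diet effects were also compared between strains and sexes, and 0 members passed in any of these 6 comparisons. Of all genes, 0.0532% were called for CAST/EiJ against C57BL/6J, 0.0373% for NZO/HlLtJ against C57BL/6J and 1.28% for NZO/HlLtJ against CAST/EiJ. For F against M the shares were 0% in C57BL/6J, 0.0479% in CAST/EiJ and 0.00532% in NZO/HlLtJ. The unadjusted p was under 0.05 for 1, 1, 2, 0, 1 and 2 members in that order, and for 8.19%, 6.87%, 14.1%, 2.82%, 7.76% and 11.2% of all genes. Cubn in NZO/HlLtJ was among these, and its diet effect differed between F and M by -0.42 ± 0.15 (adjusted p 0.305). In that strain Cubn stood at 1772, 1705, 2085 and 1694 CPM in F on 10% fat, and at 1591, 1381, 1567 and 1575 on 44% fat, without overlap. Lrp2 likewise stood at 10061, 9672, 10242 and 9598 CPM in NZO/HlLtJ F on 10% fat and from 7045 to 8616 on 44% fat, again without overlap. In NZO/HlLtJ M the diets overlapped, at 869 to 1104 and 1076 to 1372 CPM for Cubn and 4473 to 6056 and 5073 to 5852 for Lrp2. Ranges were also apart for Kl in CAST/EiJ M (823 to 940 on 10% fat, 722 to 807 on 44%). The same held for Slc20a1 in NZO/HlLtJ M (40.7 to 49.8 and 50.5 to 76.3). No share of such cases over all genes is given here.

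Members differed widely in how much they varied among libraries of the same group. The within-group SD of log2 CPM was 1.02 for Cyp24a1 and 0.87 for Cyp27b1, above 99.9% and 99.7% of 13883 genes with a mean of at least 1 CPM, whose median was 0.13. Slc34a1 had the smallest, 0.09, followed by Kl at 0.10. Strain accounted for 51.1% of the variation of Slc34a1 and sex for 37.8%, with 6.37% left within groups after the ID run was fitted. For Cubn sex held 66.9%, for Lrp2 55.6% and for Vdr 50.6%. Diet held 13.8% for Cyp24a1, with 61.1% left within groups after the ID run, and 4.60% or less for each of the others. The ID run held at most 4.57%, for Cyp27b1.

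Over the 12 group means most neighbours in the order of levels overlapped. Neighbours adjoin because the groups were sorted by mean, so groups farther apart can be free of overlap where no neighbours are. No share of such steps over all genes is given here. Slc34a1 was highest in C57BL/6J M on 44% fat (5006 CPM) and lowest in CAST/EiJ F on 44% fat (2545), and 2 of the 11 steps between neighbours were free of overlap. Of these, 1 lay between the diets in C57BL/6J F, at 3424 to 3556 CPM on 44% fat and 3270 to 3398 on 10% fat. Lrp2 was highest in NZO/HlLtJ F on 10% fat (9893) and lowest in CAST/EiJ M on 44% fat (5291), with 1 step free of overlap. Vdr was highest in C57BL/6J M on 44% fat (352 CPM) and lowest in CAST/EiJ F on 10% fat (242), with 2 such steps. The upper step lay between CAST/EiJ M on 10% fat and NZO/HlLtJ F on 44% fat. The lower step lay between NZO/HlLtJ F and CAST/EiJ F, both on 10% fat. Slc20a1 was highest in CAST/EiJ M (69.3) and lowest in C57BL/6J F, both on 44% fat. Its 1 such step lay between C57BL/6J M on 44% fat and C57BL/6J F on 10% fat. Slc34a3, Slc20a2, Kl, Cubn, Cyp24a1 and Cyp27b1 had none. Their highest group means were 1.88, 1.33, 1.49, 1.77, 4.93 and 5.67 times their lowest.

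Deviations of single libraries from their group means were then correlated between members, over 47 libraries and 45 pairs, with permutation of libraries within groups. Lrp2 and Cubn rose and fell together, as did Cyp24a1 and Vdr. Lrp2 and Cubn had a Pearson r of 0.82 and a Spearman rho of 0.78 (permutation p 1.00e-05 for both, the smallest that 100000 permutations can give, adjusted 4.50e-04). Without the 2 libraries farthest out in Lrp2 the r was 0.78, and within the ID runs it was 0.79, 0.87 and 0.85. Cyp24a1 and Vdr had an r of 0.77 and a rho of 0.68 (permutation p 2.00e-05 and 8.00e-05, adjusted 4.50e-04 and 0.00120). Without the 2 libraries farthest out in Cyp24a1 the r was 0.68, and within ID runs 0.69, 0.83 and 0.71. The library of C57BL/6J M on 10% fat with 550 CPM of Cyp24a1 also had the highest Vdr of all libraries, 422 CPM against 297 to 311 in the rest of its group, and the lowest Cyp27b1, 0.472 CPM.

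**Figure D3:**
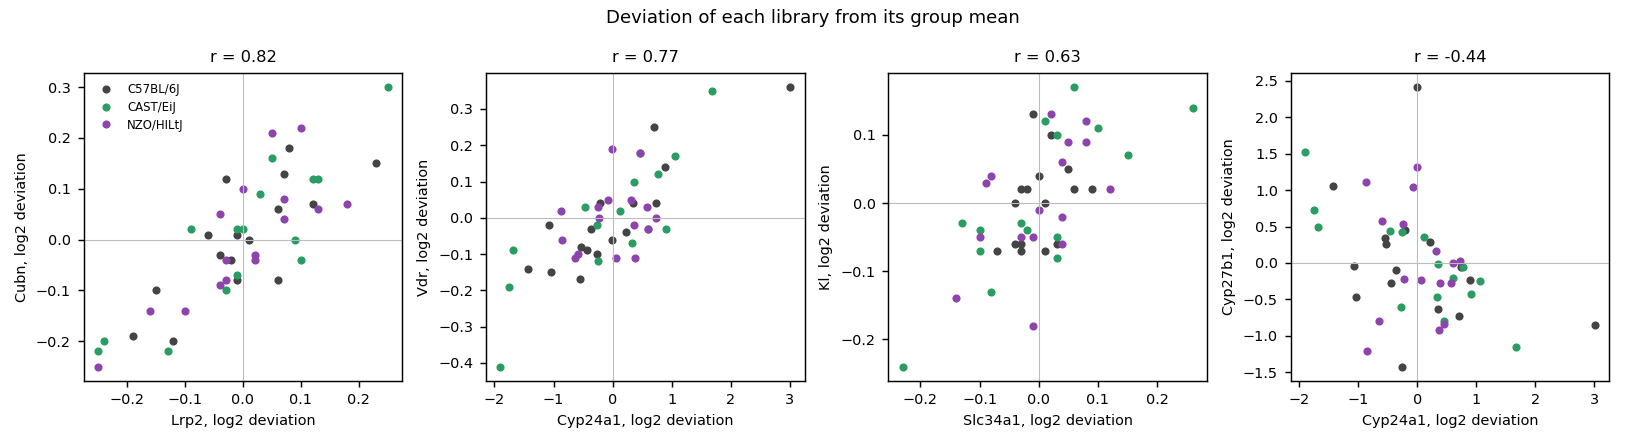
Deviation of each of the 47 libraries from its group mean in log2 CPM for 4 pairs of genes (both axes), coloured by strain, with Pearson's r above each panel. Lrp2 with Cubn and Cyp24a1 with Vdr lie along a rising line (r of 0.82 and 0.77), Slc34a1 with Kl less tightly (0.63), and Cyp24a1 with Cyp27b1 along a falling one (-0.44).

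Among the transporters and Klotho, Slc34a1 correlated with Kl (r 0.63, rho 0.57, permutation p 0.00122 and 0.00114, adjusted 0.0110 and 0.0103) and with Slc34a3 (r 0.50, rho 0.59, permutation p 8.90e-04 and 3.00e-04, adjusted 0.0110 and 0.00337). Slc34a3 correlated with Kl at 0.47 (rho 0.45, permutation p 0.00294 and 0.00655, adjusted 0.0220 and 0.0375). Slc20a2 correlated with Vdr at 0.51 (rho 0.59, permutation p 0.00108 and 5.00e-05, adjusted 0.0110 and 0.00112). Without the 2 farthest libraries these 4 pairs had an r of 0.51, 0.48, 0.49 and 0.51. The negative pair called by Pearson's r was Cyp24a1 with Cyp27b1, at an r of -0.44 and a rho of -0.43 (permutation p 0.00363 and 0.00573, adjusted 0.0233 and 0.0375). It was -0.35 without the 2 farthest libraries and -0.16, -0.57 and -0.62 within the ID runs 77, 81 and 89. Altogether 7 of 45 pairs were called by Pearson's r and 9 by Spearman's rho. Called by rho alone were Slc34a1 with Cyp24a1 (rho -0.44, permutation p 0.00719, adjusted 0.0375) and Kl with Cyp27b1 (rho 0.46, permutation p 0.00750, adjusted 0.0375). Their r was -0.39 and 0.46, with adjusted permutation p of 0.149 and 0.0613. No share of called pairs among other genes is given here, so whether these counts are particular to the members is not known. Both genes of a pair share their library's depth and scaling.

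Other genes of the same pathways were followed from lists chosen by function. Of 9 further genes of phosphate handling, 5 were higher and 4 lower in F in C57BL/6J, 4 and 3 in CAST/EiJ, and 5 and 3 in NZO/HlLtJ, where 47.9%, 47.6% and 49.9% of all genes tested were called. The median log2 difference of this list was 0.29, 0.16 and 0.18 in the 3 strains, against 0.05, 0.05 and 0.04 for all genes. The anion transporter Slc17a1 was lower in F by -0.98 ± 0.07, -1.18 ± 0.07 and -0.92 ± 0.07 in C57BL/6J, CAST/EiJ and NZO/HlLtJ, and averaged 298 ± 28.5 CPM in F and 574 ± 36.9 in M of C57BL/6J (SD, n = 8 each). Enpp1, which makes pyrophosphate, was higher in F by 0.38 ± 0.04, 0.96 ± 0.04 and 0.82 ± 0.04, and the transporter gene Ank by 0.87 ± 0.08, 0.56 ± 0.08 and 1.07 ± 0.08. The phosphate exporter Xpr1 was lower in F by -0.45 ± 0.05, -0.40 ± 0.05 and -0.33 ± 0.05. In CAST/EiJ Slc34a2, the related cotransporter best known from lung and gut, was 1.59 ± 0.09 higher than in C57BL/6J, and averaged 15.9 ± 0.730 CPM in M of CAST/EiJ (n = 7).

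Of 14 measured genes of FGF23, Klotho and parathyroid hormone signalling, 7 were called for sex in C57BL/6J (5 higher in F, 2 lower), 7 in CAST/EiJ (4 and 3) and 8 in NZO/HlLtJ (5 and 3). These counts lie near the shares of all genes called, 47.9%, 47.6% and 49.9%, and the list's median differences were 0.11, 0.11 and 0.01. Fgfr4, one of the receptors that can pair with Klotho, was lower in F in all 3 strains (-0.35 ± 0.05, -0.22 ± 0.05 and -0.47 ± 0.05) and 0.79 ± 0.04 higher in NZO/HlLtJ than in C57BL/6J. Galnt3, whose enzyme glycosylates FGF23, was lower in F by -0.71 ± 0.07, -0.51 ± 0.07 and -0.65 ± 0.07. Pth1r, the parathyroid hormone receptor, was lower in CAST/EiJ than in C57BL/6J by -0.53 ± 0.04, and its sex difference in CAST/EiJ, -0.49 ± 0.06, exceeded that in C57BL/6J by -0.35 ± 0.08 (adjusted p 0.00166).

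Of 8 further genes of vitamin D metabolism and action, 6, 7 and 7 were called for sex in C57BL/6J, CAST/EiJ and NZO/HlLtJ, 2 of them higher in F in each strain, against 47.9%, 47.6% and 49.9% of all genes. The list's median differences were -0.20, -0.19 and -0.18. Gc, the vitamin D carrier protein, had the largest differences in this list. It averaged 101 ± 20.1 CPM in F and 12.7 ± 3.53 in M of C57BL/6J, 8.35 ± 1.59 and 2.46 ± 0.667 in CAST/EiJ, and 49.8 ± 5.92 and 3.48 ± 1.19 in NZO/HlLtJ. The log2 differences were 2.95 ± 0.13, 1.76 ± 0.17 and 3.87 ± 0.15. Rxra, the partner of Vdr on DNA, was lower in F like Vdr, by -0.47 ± 0.04, -0.33 ± 0.04 and -0.47 ± 0.03. Cyp2r1, a vitamin D 25-hydroxylase gene, averaged 1.58 ± 0.346 CPM (n = 16) in C57BL/6J, 0.573 ± 0.150 (n = 15) in CAST/EiJ and 0.0598 ± 0.0443 (n = 16) in NZO/HlLtJ. At most 7 counts were seen in an NZO/HlLtJ library against up to 105 in C57BL/6J. The difference of Cyp2r1 from C57BL/6J was -1.47 ± 0.16 in CAST/EiJ and -4.80 ± 0.22 in NZO/HlLtJ. Over the other settings these ranged from -1.54 to -0.57 and from -5.06 to -1.22, and both stayed called in each.

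Of 9 partners of megalin and cubilin, 6, 3 and 6 were called for sex, with 3, 0 and 2 higher in F, where 47.9%, 47.6% and 49.9% of all genes were called. The list's median differences were -0.02, -0.03 and -0.09. Amn, which forms the receptor complex with cubilin, was lower in F by -0.28 ± 0.06 in C57BL/6J and -0.35 ± 0.06 in NZO/HlLtJ, opposite in sign to Cubn. Clcn5, an endosomal chloride transporter of the same uptake route, was lower in F by -0.33 ± 0.05, -0.38 ± 0.05 and -0.23 ± 0.05.

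Of 11 genes of renal calcium handling, 9 were higher in F in C57BL/6J, 9 in CAST/EiJ and 10 in NZO/HlLtJ, and 0 were lower; the shares of all genes called higher in F were 25.1%, 23.7% and 25.4%. Among them were the calcium channel Trpv5 (0.47 ± 0.09, 0.66 ± 0.09 and 0.66 ± 0.08), the calcium-binding protein Calb1 (0.56 ± 0.10, 0.52 ± 0.10 and 0.51 ± 0.10) and the tight junction gene Cldn19 (0.60 ± 0.07, 0.28 ± 0.07 and 1.07 ± 0.07). The summed level of 3 distal convoluted tubule markers was higher in F as well, with ranges of 922 to 1172 against 628 to 755 CPM in C57BL/6J, 617 to 724 against 387 to 557 in CAST/EiJ, and 920 to 1057 against 536 to 702 in NZO/HlLtJ. Their part in the calcium genes' differences was not tested.

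**Figure D4:**
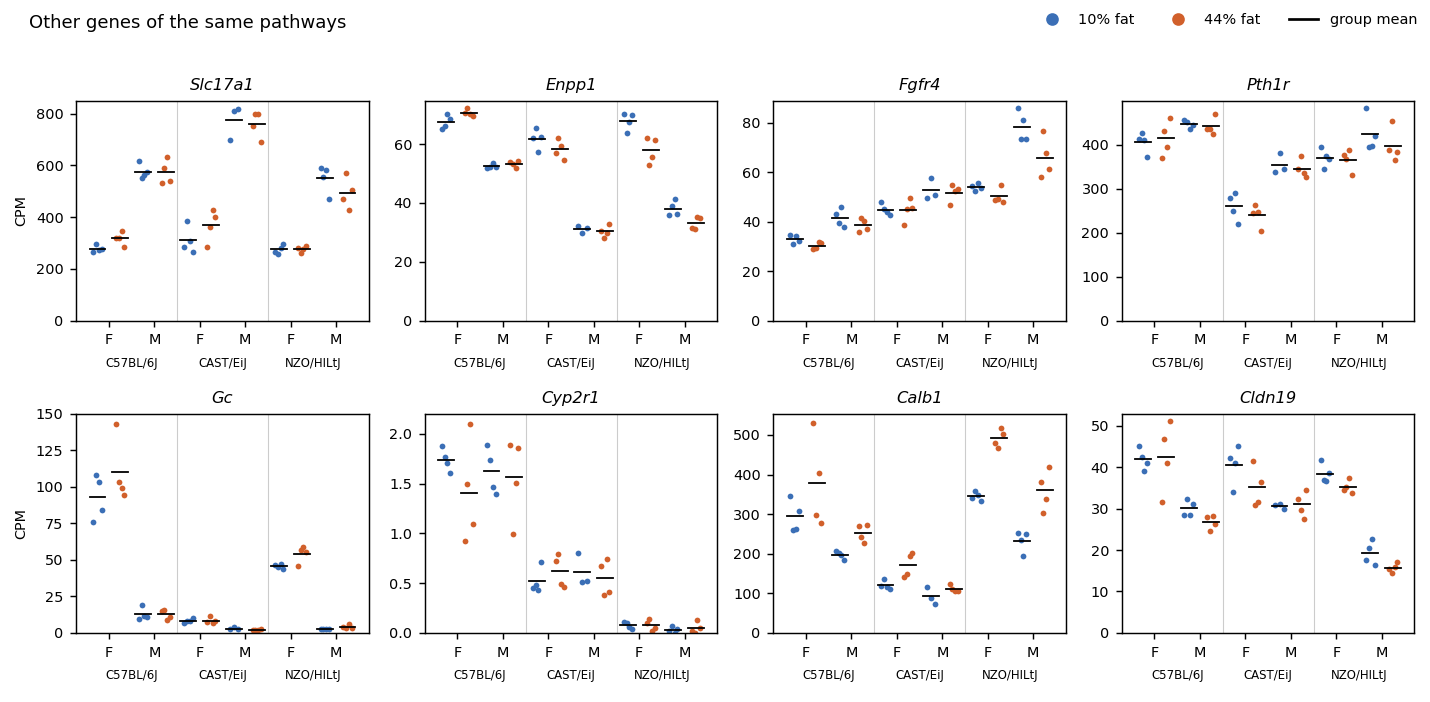
CPM of 8 other genes of the same pathways (y axis, from 0) in the 47 libraries by strain, sex and diet (x axis); points are libraries and lines group means. Slc17a1 was higher in M and Enpp1 and Gc higher in F in all 3 strains, Cyp2r1 was near 0 in NZO/HlLtJ, and Calb1 was higher on 44% fat in NZO/HlLtJ (426 ± 79.0 against 289 ± 63.1 CPM, SD, n = 8 each).

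Some genes of these lists passed the diet comparison, in which 0.990% of all genes were called in CAST/EiJ and 3.62% in NZO/HlLtJ. In NZO/HlLtJ Calb1 was 0.57 ± 0.10 higher on 44% fat (adjusted p 5.60e-04) and Enpp1 lower by -0.21 ± 0.04 (adjusted p 7.40e-04), and both held without any 1 library of that strain and in all 7 other settings. Fgfr1 (-0.15 ± 0.04), Fgfr4 (-0.18 ± 0.05), Galnt3 (0.23 ± 0.07) and the calcium receptor gene Casr (-0.30 ± 0.09) had adjusted p of 0.0372, 0.0449, 0.0481 and 0.0491, and held in only 8, 5, 4 and 5 of 16 fits without 1 library. In CAST/EiJ the FGF signalling target Dusp6 was 0.64 ± 0.15 higher on 44% fat (adjusted p 0.0228), held in 10 of 15 such fits. No gene of these lists passed in C57BL/6J. In C57BL/6J M and CAST/EiJ F, the Calb1 libraries on 44% fat also lay above all those on 10% fat. These ranges are a description, and no share of such cases over all genes is given here. On 10% and 44% fat Calb1 ran from 183 to 206 and from 227 to 273 CPM in C57BL/6J M. In CAST/EiJ F it ran from 112 to 135 and from 141 to 202. The diets overlapped in C57BL/6J F (260 to 347 and 278 to 531) and in CAST/EiJ M (72.0 to 115 and 105 to 123).

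The genes whose 12 group means most resembled each member were sought among 11722 genes, as a description without a test. For Slc34a1 the closest were Arhgap17 (Pearson r 0.977) and Entpd4 (0.973), for Slc34a3 Mmp2, Ddhd2 and Map2k1 (0.965 to 0.955), and for Kl Cpq, Ccdc107 and Gas2 (0.969 to 0.958). For Slc20a1 they were Afg3l2, Ncs1 and Crk (0.961 to 0.957), and for Slc20a2 St3gal3, Prpf4 and Tmem144 (0.962 to 0.955). Lrp2 was closest to Fndc3a, Ormdl3 and Tle2 (0.978 to 0.959), and Cubn to Sdk1, Fam53b and Orai2 (0.986 to 0.971). Vdr was closest to Mogat1, Mrps22 and Nme1 (0.965 to 0.963), and Cyp27b1 to Ptprn2, Lipg and Ehd3 (0.948 to 0.945). The best matches of Cyp24a1, Vcl, Vps53 and Spry4, reached only 0.853 to 0.839.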

How the data were processed

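Kidney RNA was measured in 47 libraries by paired-end sequencing of polyadenylated RNA, with reads of 100 bp, per the labels' protocols. The authors deposited expected counts per gene (25.9% of values not whole), a variance-stabilized log2 matrix and gene annotation. GRCm38 and DESeq2 are named in the submitters' processing notes, and the aligner and counting tool are not given in the sources used here. Expected counts were rounded and tested with edgeR 4.0.16 (robust quasi-likelihood F test, TMM scaling, 12 groups plus the ID run, 33 residual degrees of freedom). Of the genes, 18786 were tested and 3688 fell under the expression filter. P-values were adjusted by the Benjamini-Hochberg method over all genes tested in each of 18 comparisons, with 0.05 as the threshold. CPM are expected counts on a per-million basis of the TMM-scaled total, and correlations used log2 CPM after adding 0.1. SE is the log2 difference divided by the root of F. Alternatives were DESeq2 1.42.0 (size factors and Wald test), limma 3.58.1 (voom, and the deposited log2 matrix), no filter, no ID run term, only the strains compared, and each library left out. All 10 members are named throughout. Each pathway list is given by counts and up to 4 genes with the smallest adjusted p in a comparison. Members and lists were chosen with earlier results of these data known. One gene that the naming rule picks is not reported here.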

Additional observations from a re-analysis of the deposited data

Results flagged for a closer look

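In 17 of 110 sets of 4 libraries (10 genes in 11 groups), 1 library lay far from the other 3 by Dixon's criterion. About 1 of 20 independent sets of normally spread values meet it, but here it was applied to unlogged CPM. Sets of different genes also share libraries, and no share over all genes is given here. The count is therefore not read as an excess in these genes. Among the vitamin D genes, Cyp24a1 reached 550 CPM in C57BL/6J M 10% fat replicate 2 against 25.4 to 47.2 in the rest of its group, and Vdr reached 422 CPM in the same library against 297 to 311. Cyp27b1 reached 11.4 CPM in C57BL/6J F 44% fat replicate 1 (the others 0.709 to 1.68) and 10.5 in NZO/HlLtJ F 10% fat replicate 3 (the others 2.35 to 3.49). Vdr also stood at 327 CPM in C57BL/6J F 44% fat replicate 4 against 256 to 264.

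Among the transporters, Slc34a1 stood at 5342 CPM in C57BL/6J M 44% fat replicate 4 against 4854 to 4927. Slc34a3 was high in C57BL/6J F 10% fat replicate 1 (49.6 CPM), CAST/EiJ F 44% fat replicate 3 (59.0) and NZO/HlLtJ M 44% fat replicate 4 (47.1), and low in NZO/HlLtJ F 44% fat replicate 2 (36.5). Slc20a1 was low in C57BL/6J F 10% fat replicate 3 (33.6 CPM) and high in NZO/HlLtJ M 44% fat replicate 2 (76.3). Kl was low in C57BL/6J M 44% fat replicate 1 (1017 CPM) and high in CAST/EiJ M 44% fat replicate 4 (807) and NZO/HlLtJ F 10% fat replicate 1 (842). Cubn was low in NZO/HlLtJ F 44% fat replicate 2 (1381 CPM) and NZO/HlLtJ M 10% fat replicate 1 (869).

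The sex difference itself differed between strains in 5 tests. Against C57BL/6J, the F minus M value of CAST/EiJ differed by 0.28 for Slc34a1, -0.29 for Slc20a2 and -0.31 for Lrp2. Between NZO/HlLtJ and CAST/EiJ it differed by -0.27 for Kl and 0.52 for Lrp2.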

How the results depend on the processing

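No paired analysis was possible because the labels give no replicate numbers; those printed here only name a library, in sample order within its group. Of 180 values of the members per setting, 174 to 180 stayed on their side of the threshold and 0 to 13 changed sign. Without 1 library 4182 of 4230 stayed, 13 gained and 35 lost a call, and 150 changed sign. None of the sign changes touched a called value. For F minus M in NZO/HlLtJ against C57BL/6J the count of members called went from 0 to 1 (Slc34a1) with the DESeq2 Wald test, limma-voom and only the strains compared, and ran from 0 to 1 without each library. For the diets in NZO/HlLtJ against CAST/EiJ it went from 0 to 1 (Slc34a3) with limma-voom; the cause was not tested. Cyp24a1 in NZO/HlLtJ minus C57BL/6J passed with limma-voom (0.95) and on the deposited log2 matrix (0.86).

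Counts over all genes for sex and strain stayed within 1.5 times. Diet counts did not: C57BL/6J had 5 (0 to 13 without each library, 27 with the Wald test, 12 with limma-voom, 2 with no filter or no ID run term, 1 on the deposited matrix, 0 with only that strain). CAST/EiJ had 186 (57 to 330, Wald 432, limma-voom 501, only that strain 47) and NZO/HlLtJ 680 (lowest 319, only that strain 273). Differences in diet effect had 10 for CAST/EiJ against C57BL/6J (0 to 21, no filter 6, Wald 47, limma-voom 26, deposited matrix 4, only those strains 0) and 7 for NZO/HlLtJ against C57BL/6J (0 to 21, size factors 3, no filter 0, Wald 22, deposited matrix 4, only those strains 1). NZO/HlLtJ against CAST/EiJ had 241 (lowest 112, Wald 505, limma-voom 474, only those strains 62). For F against M they were 0 in C57BL/6J (0 to 1, Wald 1), 9 in CAST/EiJ (0 to 18, no filter 5, Wald 29, limma-voom 17, deposited matrix 18, only that strain 0) and 1 in NZO/HlLtJ (0 to 5, Wald 36, limma-voom and the deposited matrix 2, only that strain 0). With 4 libraries a group, the spread of Cyp24a1 and Cyp27b1 limits what their diet comparison can show. Pairs of members called within groups numbered 7 with 2 other scalings and 8 with the ID run removed.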

Other observations

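For 3 of the 7 pairs called within groups, the sign of the correlation over the 12 group means was opposite to that among libraries of the same group. Slc34a1 and Slc34a3 had a Pearson r of -0.88 over group means and 0.50 over the 47 deviations from group means. Slc34a3 and Kl had -0.87 over group means and 0.47 within groups, and Cyp24a1 and Cyp27b1 had 0.42 over group means and -0.44 within groups. Slc34a1 with Kl (0.90 and 0.63) and Lrp2 with Cubn (0.95 and 0.82) had the same sign in both. The group means share strains, sexes and diets, so they are a description with no test.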
